A study of Mus musculus with 8 samples.

Results

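The 9 genes examined here encode complement components and the receptors for the complement fragments C3a and C5a, which are called anaphylatoxins. They are C1ra and C1s1, which encode the proteases of the first component, C4b and C2, which act next in the classical pathway, C3, Cfb and Cfd of the alternative pathway, and the receptor genes C3ar1 and C5ar1. They were picked by name out of 18901 genes in the table, by a rule that uses no measured value. Earlier results of these data were known when the members were chosen. All 9 had enough reads to be tested, with between 346 and 34523 counts per mouse.

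Complement is a chain of plasma and tissue proteins in which one protease cuts the next. Antibody or dying cells bound by C1q start the classical pathway, in which C1r activates C1s, and C1s cuts C4 and C2 to form an enzyme that splits C3. In the alternative pathway factor D cuts factor B on deposited C3b, which forms a further enzyme that splits C3 and amplifies the reaction. The small fragments C3a and C5a then act on their receptors on mast cells, neutrophils, monocytes and macrophages. The liver supplies most plasma complement, but keratinocytes, fibroblasts and macrophages in skin also make components, and fat cells are the main source of factor D, also known as adipsin.

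The libraries, 1 per mouse, were made from skin of the left cheek. The knockout group held 4 mice of the genotype TBX20fl/fl;K14-Cre, and their 4 littermate controls were TBX20fl/fl. TBX20 is a T-box transcription factor, and the K14 promoter drives Cre recombinase in keratinocytes, so the gene is deleted in these cells and remains intact in other cells of the sample. The Cre line was of C57BL/6N and the floxed line of C57BL/6J background. All mice were females aged 7 weeks, both groups carried the floxed alleles, and both received 10 µg of BNP, a natriuretic peptide that evokes scratching, in 10 µl into the dermis of the shaved cheek. Tissue was taken 5 h after a 30 min recording of behaviour. No vehicle-injected library was analysed here, so the values describe BNP-injected skin and not a response to BNP. The question the comparison addresses is how loss of TBX20 from keratinocytes affects gene expression in this skin. The sample labels call the controls flox/flox, whereas the text for the series calls them wild type.

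The total of the deposited estimated counts was 16056282 to 19880654 per mouse. The targeted gene Tbx20 had 0 to 2 counts in each knockout and 0 to 3 in each control, at or below the 3 counts taken as the floor, so the deleted gene did not check the labels. One library stood apart. In TBX20fl/fl replicate 2 the FPKM values, which are reads scaled to transcript length and library size, summed to 772536 against 521852 to 605508 in the other 7 mice, and the TMM scaling factor was 0.735 against 1.01 to 1.07. The fold changes of the 9 complement genes are therefore given with and without this mouse. The keratinocyte markers Krt14 and Krt5 were present in every mouse, at 1075 to 1572 FPKM and 389 to 803 FPKM. The samples also held fat, muscle, fibroblasts and blood cells, and in such mixed tissue fewer cells of a type and less RNA per cell cannot be told apart.

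The genes lie in a few clusters of the mouse genome. On GRCm38.p6, in the RefSeq annotation, C3ar1 (chr6:122847140-122856157, minus strand), C1ra (chr6:124512621-124523440, plus strand) and C1s1 (chr6:124530344-124542392, minus strand) share chromosome 6. C4b (chr17:34728139-34743902), Cfb (chr17:34856374-34862514) and C2 (chr17:34862602-34882100) lie in the major histocompatibility complex on the minus strand, and C3 (chr17:57203967-57228136, minus strand) lies farther along the same chromosome. Cfd (chr10:79890853-79892655, plus strand) and C5ar1 (chr7:16246743-16259540, minus strand) stand on their own.

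The stretches just upstream of 4 of these genes are shown because the results turn on these genes: C3 and Cfd lay on opposite sides of the other mice in the library that stood apart, and C3ar1 and C5ar1 are the receptor pair. Each line holds the 250 bases before an annotated transcription start, read 5′ to 3′ on the gene's own strand from RefSeq on GRCm38.p6, with capitals marking a match to a C/EBP motif.
C3, chr17:57228137-57228386, minus strand: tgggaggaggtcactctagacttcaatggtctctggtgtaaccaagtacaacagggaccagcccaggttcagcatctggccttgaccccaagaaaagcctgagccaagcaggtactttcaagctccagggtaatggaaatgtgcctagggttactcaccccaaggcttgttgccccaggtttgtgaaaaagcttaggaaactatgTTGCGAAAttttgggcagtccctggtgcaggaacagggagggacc
Cfd, chr10:79890603-79890852, plus strand: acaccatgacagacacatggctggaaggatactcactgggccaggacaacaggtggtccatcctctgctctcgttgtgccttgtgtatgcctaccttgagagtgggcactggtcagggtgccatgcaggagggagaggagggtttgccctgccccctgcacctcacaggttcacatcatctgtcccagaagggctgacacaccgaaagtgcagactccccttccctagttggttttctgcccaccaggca
C3ar1, chr6:122856158-122856407, minus strand: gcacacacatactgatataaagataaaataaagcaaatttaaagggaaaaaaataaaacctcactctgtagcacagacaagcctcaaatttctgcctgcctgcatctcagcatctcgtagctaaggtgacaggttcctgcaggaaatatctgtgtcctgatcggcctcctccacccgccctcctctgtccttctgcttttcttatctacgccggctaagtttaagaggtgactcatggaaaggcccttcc
C5ar1, chr7:16259339-16259588, minus strand: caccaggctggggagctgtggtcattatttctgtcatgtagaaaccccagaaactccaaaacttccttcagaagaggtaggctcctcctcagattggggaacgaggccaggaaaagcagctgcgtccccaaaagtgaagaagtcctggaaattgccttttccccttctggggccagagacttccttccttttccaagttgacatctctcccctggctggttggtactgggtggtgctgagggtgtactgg
The C5ar1 stretch lies partly within the annotated gene, before a start of a shorter transcript.

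For 5 motifs, both strands of 7 such stretches were searched in 6 members, C1ra, C1s1 with 2 starts, C3, Cfd, C3ar1 and C5ar1. The T-box half-site AGGTGT was in none of the 7, and 11.8% of 32851 mouse promoters of the same length held it. The interferon gamma motif GAS, TTCNNNGAA (in 7.02% of promoters), the interferon motif ISRE (in 2.98%) and the NF-kB motif (in 0.980%) were also in none of the 7. The C/EBP motif TTGCNNAA was in 2 of the 7, against 9.56% of all promoters. It occurred as TTGCGAAA in the C3 stretch printed above, where its first base stands 45 bases before the start, and as TTAGGCAA, its form on the opposite strand, before 1 start of C1s1. The C/EBP motif was added after the sequences had been seen. These matches describe letters in short windows and do not show binding.

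In levels per kilobase of transcript, Cfd was far above the other members. Its mean over the 8 mice was 1614 ± 414 FPKM (SD, n = 8), which made up 80.5% of the summed FPKM of the 9 genes, and it was 12.0 times the mean of C3 and higher than C3 in 8 of 8 mice. C3, the protein on which all pathways meet, came next at 135 ± 49.3 FPKM and was above C1s1 in 7 of 8 mice. C1s1 followed at 79.9 ± 15.8 FPKM, Cfb at 52.1 ± 14.5 FPKM, C1ra at 40.1 ± 10.9 FPKM and C4b at 39.9 ± 14.9 FPKM. C1ra and C4b did not differ beyond their spread, since C1ra was the higher in 4 of 8 mice. The same held for C3ar1 at 16.3 ± 3.94 FPKM and C2 at 16.1 ± 3.41 FPKM, with C3ar1 the higher in 4 of 8 mice. C5ar1 was lowest at 12.2 ± 2.71 FPKM and stood below C2 in 8 of 8 mice.

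None of the 9 genes passed the test between the genotypes. In edgeR's quasi-likelihood test, adjusted by Benjamini-Hochberg over 17124 genes, 0 of 9 passed an adjusted p of 0.05, where 0.0% of all genes tested did, and 0 of 9 had an unadjusted p under 0.05, where 8.36% of all genes did. DESeq2 also called 0 of the 9, while it called 0.0609% of 16410 genes, and 0 of the 9 had an unadjusted p under 0.05 in it against 11.4% of genes. The log2 fold changes ran from -0.54 for Cfd to 0.43 for C3, and 4 were below 0 and 5 above. Their median was 0.062, beside a median of 0.026 over all genes tested. Without TBX20fl/fl replicate 2 the median of the 9 was -0.058, beside 0.013 over all genes. The FPKM values of the genotypes overlapped for all 9 genes with or without that mouse, whereas in 7.37% of 15970 genes they did not overlap over the 8 mice. Without it the knockouts lay below all controls in 2.57% of genes and above them in 5.65%.

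**Figure D1:**
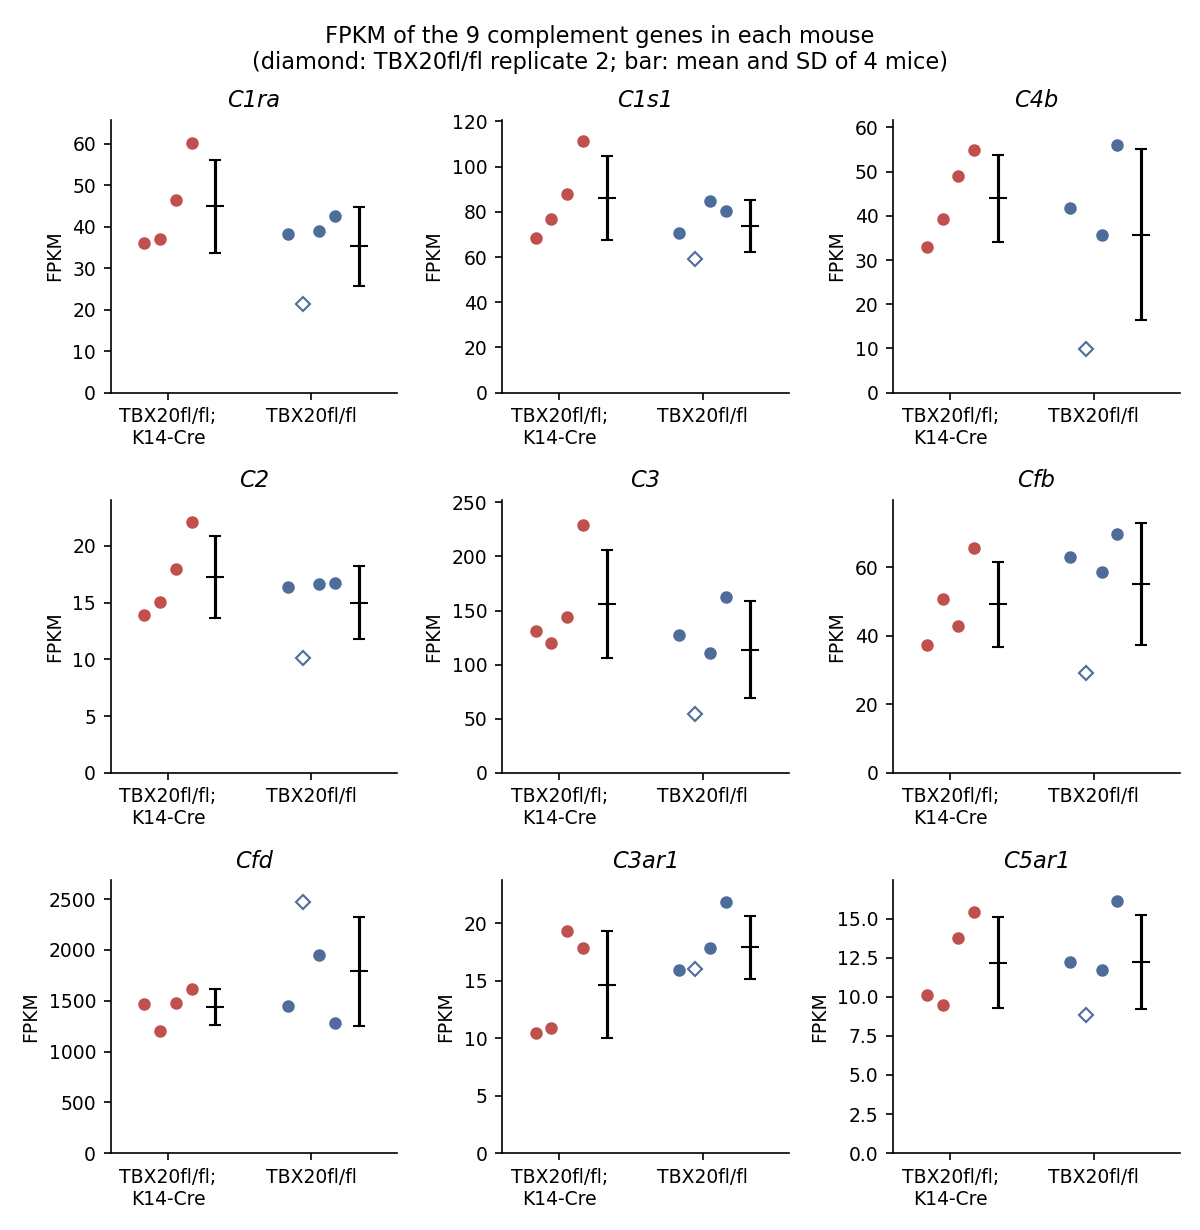
FPKM (y axis) of each complement gene in each mouse, red for TBX20fl/fl;K14-Cre and blue for TBX20fl/fl, with the bar at the mean and SD of 4 mice per genotype. The genotypes overlap in all 9 panels, and TBX20fl/fl replicate 2 (diamond) is the lowest of the 8 mice in 7 panels and the highest for Cfd.

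The 2 proteases of the first component gave much the same picture. C1ra, whose product activates C1s, was at 36.0, 37.0, 46.4 and 60.2 FPKM in TBX20fl/fl;K14-Cre replicates 1 to 4 and at 38.2, 21.3, 39.1 and 42.6 FPKM in TBX20fl/fl replicates 1 to 4. The highest value was in a knockout mouse and the lowest in TBX20fl/fl replicate 2, and the other 6 lay together between 36.0 and 46.4 FPKM. Means were 44.9 ± 11.2 and 35.3 ± 9.53 FPKM (SD, n = 4 each), with a log2 fold change of 0.22 (SE 0.196, 95% interval -0.23 to 0.66, adjusted p = 0.565 in edgeR's test). The change of C1ra was 0.12 (95% interval -0.26 to 0.50) without TBX20fl/fl replicate 2 and 0.050 without TBX20fl/fl;K14-Cre replicate 4. C1s1, which cuts C4 and C2, stood at 68.6, 77.0, 87.8 and 111 FPKM in the knockouts and at 70.6, 59.0, 84.9 and 80.2 FPKM in the controls. Its log2 fold change was 0.067 (SE 0.174, 95% interval -0.33 to 0.46, adjusted p = 0.833 in edgeR's test), and 0.084 without TBX20fl/fl replicate 2. Without TBX20fl/fl;K14-Cre replicate 4, the highest mouse for C1s1, the change was -0.072, so its sign rested on that mouse. Reads of these genes are partly shared with neighbours, since 50.8% of the 50-base stretches of C1ra transcripts also occur in C1rb or Gm18840 and 35.1% of those of C1s1 in C1s2 or Gm16567. The paralogs held 0 to 5 counts (C1rb) and 3 to 9 counts (C1s2) per mouse, against at least 927 for C1ra and 2722 for C1s1.

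C4b and C2, whose products form the C3-splitting enzyme of the classical pathway, followed. C4b was at 32.9, 39.3, 48.9 and 55.0 FPKM in the knockouts and at 41.7, 9.82, 35.6 and 56.0 FPKM in the controls. TBX20fl/fl replicate 2 was far below every other mouse, and the other 7 lay within 1.70 times of each other against 5.70 times for all 8. The log2 fold change of C4b was 0.21 (SE 0.364, 95% interval -0.60 to 1.03, adjusted p = 0.744 in edgeR's test) and was -0.058 (95% interval -0.51 to 0.39) without that mouse, so its sign turned. The estimate for C4b was 0.48 without TBX20fl/fl replicate 4 and 0.097 without TBX20fl/fl;K14-Cre replicate 4. C4a, which shares 34.6% of the 50-base stretches of C4b, had 3 to 11 counts per mouse. C2 was at 13.9, 15.0, 17.9 and 22.1 FPKM in the knockouts and at 16.4, 10.2, 16.6 and 16.7 FPKM in the controls. Leaving out TBX20fl/fl replicate 2, the 3 controls of C2 agreed to within 1.15% (SD over mean), whereas the knockouts spread by 21.1% around them on both sides. The log2 fold change of C2 was 0.062 (SE 0.163, 95% interval -0.30 to 0.43, adjusted p = 0.835 in edgeR's test), and it was 0.0090 without TBX20fl/fl replicate 2 and -0.071 without TBX20fl/fl;K14-Cre replicate 4.

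C3 had the largest upward estimate of the 9. It was at 132, 119.7, 144 and 229 FPKM in the knockouts and at 128, 54.7, 111 and 162 FPKM in the controls. In each pair of mice with the same replicate number the knockout was the higher, yet 3 of the 4 knockouts lay below the highest control. The means were 156 ± 49.7 and 114 ± 44.8 FPKM (SD, n = 4 each), and the log2 fold change was 0.43 (SE 0.319, 95% interval -0.29 to 1.14, adjusted p = 0.522 in edgeR's test). Without TBX20fl/fl replicate 2, the mouse with the lowest C3, the estimate was 0.22 (95% interval -0.34 to 0.78), and without TBX20fl/fl;K14-Cre replicate 4 it was 0.19. With the length trend removed the estimate for C3 was 0.25 (95% interval -0.25 to 0.74). No 50-base stretch of C3 occurs in another annotated transcript.

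Cfb and Cfd, the proteases of the alternative pathway, had estimates below 0. Cfb, which encodes factor B, was at 37.4, 50.9, 42.8 and 65.7 FPKM in the knockouts and at 63.0, 29.2, 58.6 and 69.6 FPKM in the controls. Of the controls, 3 lay close together at 58.6 to 69.6 FPKM, above 3 of the 4 knockouts, and TBX20fl/fl replicate 2 lay below all other mice. The log2 fold change was -0.30 (SE 0.217, 95% interval -0.78 to 0.19, adjusted p = 0.520 in edgeR's test). Without TBX20fl/fl replicate 2 it was -0.43 (95% interval -0.82 to -0.041, unadjusted p = 0.0338, adjusted p = 0.638 in edgeR's test), so Cfb did not pass. It was the single member with an unadjusted p under 0.05 in that fit, where 4.5% of all genes had one and were lower in the knockouts. Leaving out 1 mouse at a time, the estimate for Cfb ran from -0.46 without TBX20fl/fl;K14-Cre replicate 4 to -0.19 without TBX20fl/fl;K14-Cre replicate 1. For Cfb 73.0% of the 50-base stretches also occur in the overlapping readthrough gene Gm20547, which likewise shares sequence with C2, so how reads were divided between them can alter these counts.

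Cfd, which encodes factor D, the rate-limiting protease of the alternative pathway, was at 1470.4, 1199, 1476 and 1619 FPKM in the knockouts and at 1452, 2469.9, 1952 and 1278 FPKM in the controls. The knockouts varied little, by 12.2% of their mean, and the controls by 30.04%. TBX20fl/fl replicate 2 was the highest mouse for Cfd and replicate 3 the next, whereas replicates 1 and 4 lay among the knockouts. The means were 1441 ± 175 and 1788 ± 537 FPKM (SD, n = 4 each), with a log2 fold change of -0.54 (SE 0.314, 95% interval -1.25 to 0.16, adjusted p = 0.499 in edgeR's test). The estimate was -0.16 (95% interval -0.58 to 0.25) without TBX20fl/fl replicate 2, and 0.017 (95% interval -0.38 to 0.42) once a trend of each library with transcript length had been removed. The adipocyte markers, 6 genes led by Fabp4 and Adipoq, summed to 1911 to 3478 FPKM in the knockouts and 1996 to 3522 FPKM in the controls, with 3 of 6 lower in the knockouts, 0 of 6 at an unadjusted p under 0.05 and none at 0. Their part in the level of Cfd was not tested.

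Both receptor genes had estimates below 0, that of C3ar1 being the larger in size. C3ar1, the receptor for C3a, was at 10.5, 10.8, 19.4 and 17.9 FPKM in the knockouts and at 15.9, 15.99, 17.9 and 21.8 FPKM in the controls. Knockout replicates 1 and 2 lay below all 4 controls, while replicates 3 and 4 lay among them. The means were 14.6 ± 4.64 and 17.9 ± 2.76 FPKM (SD, n = 4 each), and the log2 fold change of -0.46 (SE 0.232, 95% interval -0.98 to 0.061, adjusted p = 0.498 in edgeR's test) had the smallest p of the 9 members. It was -0.39 without TBX20fl/fl replicate 2, and -0.73 (95% interval -1.35 to -0.12, unadjusted p = 0.0242, adjusted p = 0.536 in edgeR's test) with the length trend removed, where 5.71% of genes were lower at an unadjusted p under 0.05. C5ar1, the receptor for C5a, was at 10.1, 9.45, 13.8 and 15.4 FPKM in the knockouts and at 12.2, 8.85, 11.7 and 16.1 FPKM in the controls. Its means were 12.2 ± 2.88 and 12.2 ± 2.98 FPKM, and its log2 fold change was -0.15 (SE 0.189, 95% interval -0.57 to 0.28, adjusted p = 0.665 in edgeR's test). It was -0.18 without TBX20fl/fl replicate 2, and -0.042 without TBX20fl/fl replicate 4 or without TBX20fl/fl;K14-Cre replicate 2. Neither gene shares a 50-base stretch with another annotated transcript.

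The exact permutation test of mean FPKM over all 70 assignments of the mice gave two-sided p-values from 0.286 for C3ar1 to 0.971 for C5ar1. The smallest p this design allows is 0.0286. After Benjamini-Hochberg adjustment over 15970 genes, a gene could therefore pass only if most genes reached that p. The smallest adjusted permutation p of any gene was 0.388, and no conclusion is drawn from the lack of a pass. The intervals above set how large a difference these 8 mice could still hold. For C1s1 and C2 they ended within 0.46 of no change on the log2 scale, whereas for C3, C4b and Cfd they reached beyond 1 in one direction.

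**Figure D2:**
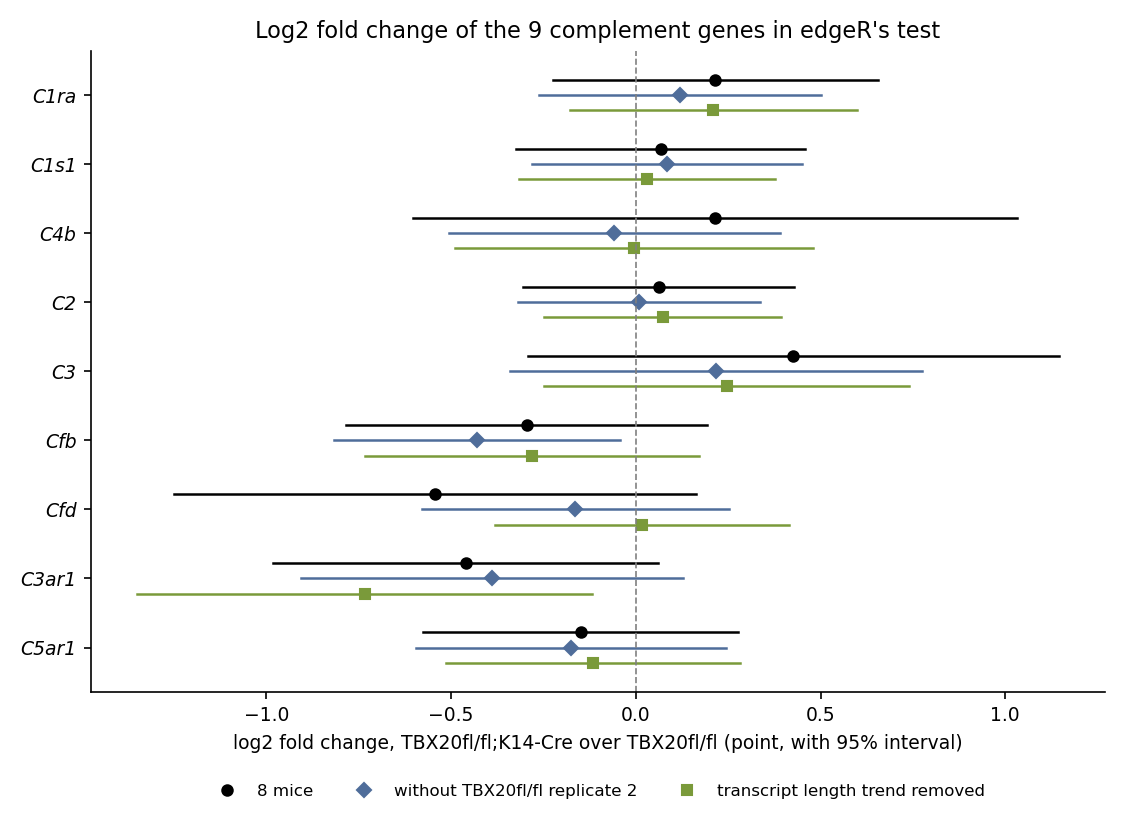
Log2 fold change (x axis, TBX20fl/fl;K14-Cre over TBX20fl/fl) of each complement gene, with the point at the edgeR estimate and the line its 95% interval, over 8 mice (black), without TBX20fl/fl replicate 2 (blue) and with the transcript length trend removed (green). All 9 black lines cross 0, Cfb leaves 0 in blue only and C3ar1 in green only, and the estimates of C4b and Cfd change sign in at least one of the colours.

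In TBX20fl/fl replicate 2 the members departed from the other mice in different directions. On the log2 CPM scale with TMM scaling, this mouse differed from the median of the other 7 by 1.25 for Cfd, the shortest of the 9 transcripts at 871 bases, by -1.10 for C3 at 4428 bases and by -1.60 for C4b, the longest at 5345 bases. C3ar1 broke this order, at 0.39 with 4251 bases. Members of middle length lay closer, at 0.017 for C5ar1 with 2441 bases, 0.062 for C1s1 with 2873 bases, -0.22 for C2 with 2595 bases, -0.42 for C1ra with 2713 bases and -0.53 for Cfb with 2543 bases. The mouse was outside the range of the other 7 for 5 genes, below it for C1ra, C3 and C4b and above it for Cfd and C3ar1. Lengths are those implied by the deposited counts and FPKM values.

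**Figure D3:**
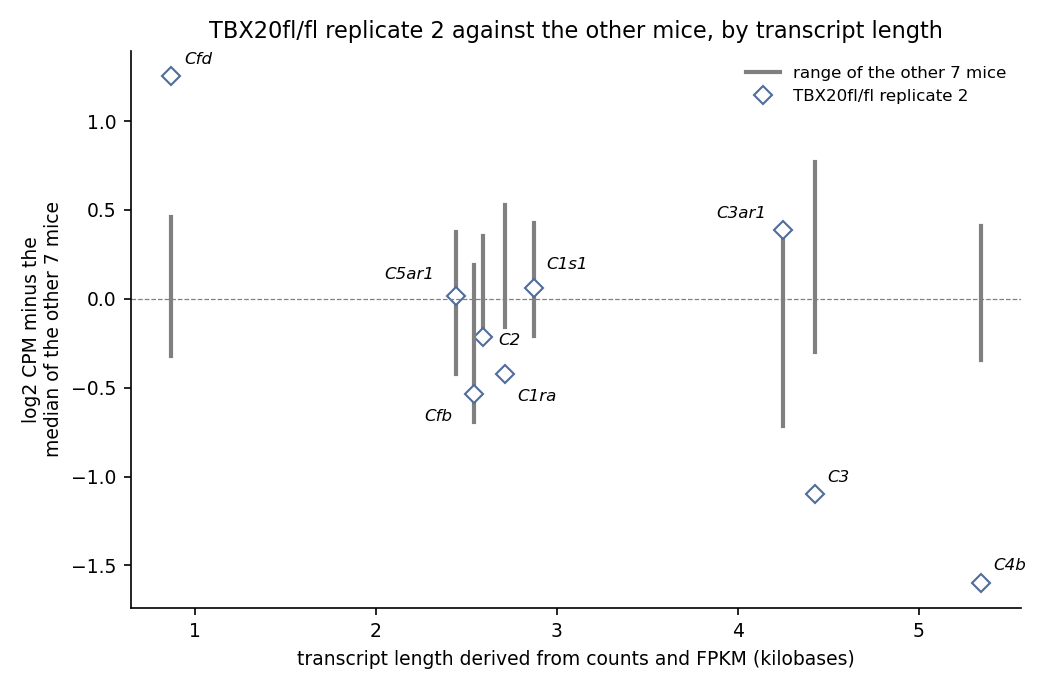
Difference in log2 CPM (y axis) between TBX20fl/fl replicate 2 and the median of the other 7 mice, against transcript length in kilobases (x axis), for each complement gene, with the grey line the range of the other 7 mice. Cfd, the shortest, lies at 1.25 above and C3 and C4b, among the longest, lie at -1.10 and -1.60 below, with C3ar1 at 0.39 as the exception among long transcripts.

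Among the knockouts, TBX20fl/fl;K14-Cre replicate 4 had the highest FPKM for 8 of the 9 members, C3ar1 being the exception with its highest value in replicate 3. Replicate 1 was the lowest knockout for 6 genes, C1ra, C1s1, C4b, C2, Cfb and C3ar1, and replicate 2 for C3, Cfd and C5ar1. The smallest distance between 2 members, taken as the root mean square difference of log2 CPM after centring each gene, was 0.111 for C2 with C1ra and with C1s1, and the largest was 1.02 for C4b with Cfd.

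Ratios of 2 members within a mouse compare their changes directly. The log2 ratio of C3ar1 to C5ar1 was 0.84, 1.00, 1.29 and 1.01 in the knockouts and 1.18, 1.65, 1.41 and 1.23 in the controls. In 3 of 4 knockouts it lay below every control. The difference in means was -0.33 (exact permutation p = 0.0857, adjusted over 6 ratios p = 0.257), and it was -0.24 without TBX20fl/fl replicate 2 (exact permutation p = 0.114). Paired by replicate number, the knockout was lower in 4 of 4 pairs, at the exact sign-flip permutation p of 0.125, the smallest that 4 pairs allow. The log2 ratio of C2 to Cfb, neighbouring genes that encode related proteases, was -1.39, -1.73, -1.22 and -1.53 in the knockouts and -1.92, -1.51, -1.79 and -2.02 in the controls. Its difference of 0.34 (exact permutation p = 0.0857, adjusted p = 0.257) became 0.44 without TBX20fl/fl replicate 2, at the exact permutation p of 0.0571 (adjusted over 6 ratios p = 0.343), and then all 4 knockouts lay above the 3 controls. Of the 50-base stretches, 41.5% of those of C2 also occur in Gm20547 or Zbtb12, and 73.0% of those of Cfb in Gm20547. How reads were divided with that readthrough gene can therefore alter this ratio.

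The ratio of C3 to Cfd carried the mark of 1 control mouse. Its log2 value was -1.14, -0.98, -0.96 and -0.45 in the knockouts and -1.18, -3.47, -1.88 and -0.59 in the controls, with TBX20fl/fl replicate 2 far below all others. The knockout was the higher in 4 of 4 pairs (exact sign-flip permutation p = 0.125). The difference of 0.90 (exact permutation p = 0.2, adjusted p = 0.4) shrank to 0.34 (exact permutation p = 0.343) without that mouse. Leaving out TBX20fl/fl replicate 4 in its place gave 1.30 at the exact permutation p of 0.0286, the smallest possible and not adjusted over the ratios. For Cfb to Cfd, the difference was 0.14 over 8 mice (exact permutation p = 0.886) and -0.31 without TBX20fl/fl replicate 2 (exact permutation p = 0.343). C1ra to C1s1 differed by 0.15 (exact permutation p = 0.4), and by 0.024 without that mouse (exact permutation p = 0.714). C4b to C3 differed by -0.11 (exact permutation p = 0.686), and by -0.26 without that mouse (exact permutation p = 0.171, adjusted over 6 ratios p = 0.343), when all 4 knockouts lay below the 3 controls.

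**Figure D4:**
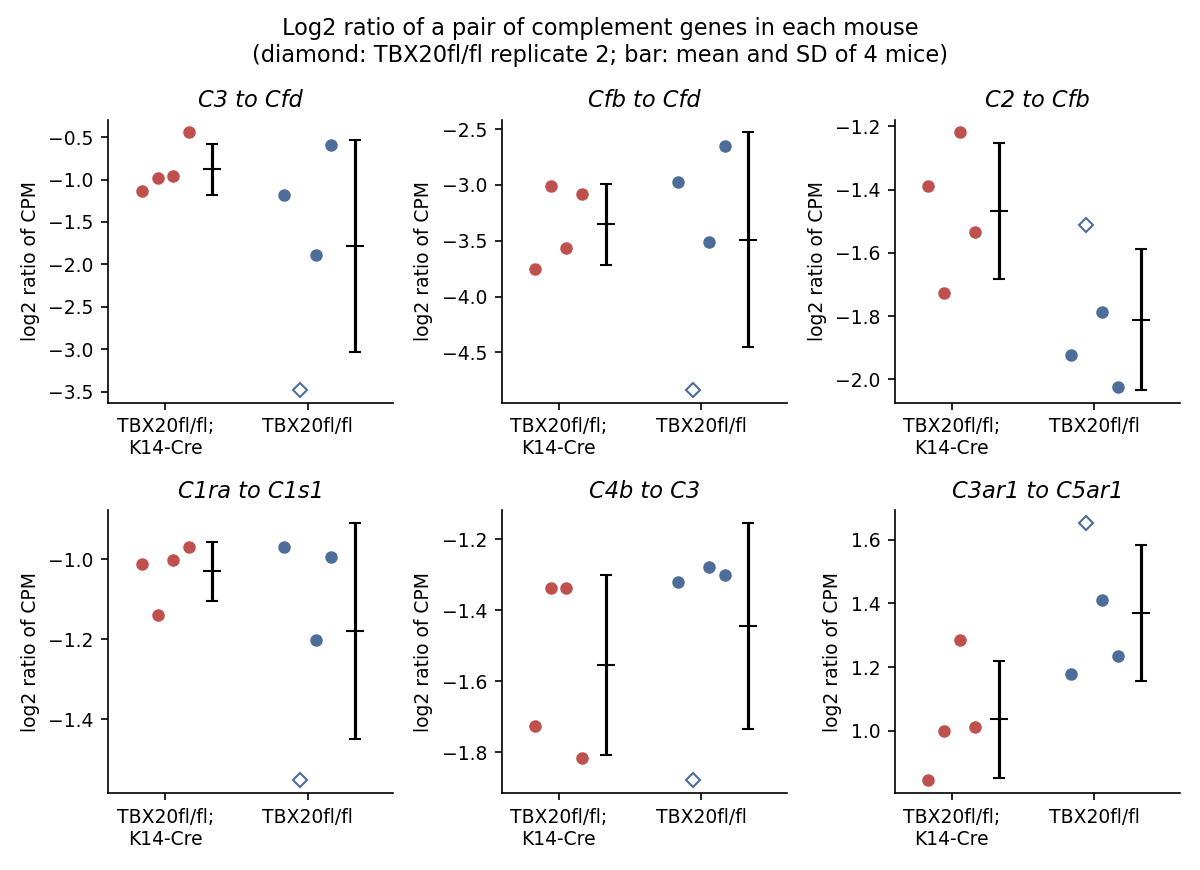
Log2 ratio of CPM (y axis) for 6 pairs of complement genes in each mouse, red for TBX20fl/fl;K14-Cre and blue for TBX20fl/fl, with the bar at the mean and SD of 4 mice. TBX20fl/fl replicate 2 (diamond) is at one end of its group in all 6 panels, and the ratio of C3ar1 to C5ar1 lies below every control in 3 of 4 knockouts.

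The rest of the pathway was taken from a list of 44 further complement genes, of which 37 had enough reads. In edgeR's test 0 of 37 passed an adjusted p of 0.05. At an unadjusted p under 0.05, 3 of 37 were lower in the knockouts and 0 were higher, where 5.91% of all genes were lower and 2.45% higher. Of the 37, 28 had a log2 fold change below 0, as had 8137 of all 17124 genes, and the medians were -0.18 and 0.026. With the length trend removed 24 of 37 were below 0, with a median of -0.13, beside 8254 of 17124 genes and a median of 0.013. By limma on log2(FPKM + 1) 17 of 30 were below 0, with a median of -0.010, beside 5487 of 15970 genes and a median of 0.12. By role, 9 of 11 genes of the classical and lectin start, 13 of 14 regulators, 3 of 5 terminal components, 2 of 6 other receptors and Cfp were below 0, and with the length trend removed 6 of 11, 10 of 14, 2 of 5, 5 of 6 and Cfp were. Leaving out single mice moved the 3 lower genes to between 1 and 7, with 7 without TBX20fl/fl replicate 1 and 1 without TBX20fl/fl replicate 3 or without TBX20fl/fl;K14-Cre replicate 1, 2 or 4. The lower calls over all genes moved too, from 1012 of 17124 to between 536 of 17024 without TBX20fl/fl;K14-Cre replicate 1 and 1859 of 17010 without TBX20fl/fl replicate 1. The other 7 genes, C1rb, Mbl1, Mbl2, Fcnb, C8a, C8b and C4bp, had at most 5 counts in any mouse.

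The 3 lower genes were C1qb and a pair of paralogs that protect cells from lysis. C1qb encodes a chain of C1q, which starts the classical pathway upstream of C1ra and C1s1. It was at 141, 146, 207 and 187 FPKM in the knockouts and at 156, 250.3, 259 and 226 FPKM in the controls, so its groups overlapped, and it was the lower in the knockout of 4 of 4 pairs. Its log2 fold change of -0.59 (SE 0.251, unadjusted p = 0.0427, adjusted p = 0.498 in edgeR's test) was -0.38 without TBX20fl/fl replicate 2 and -0.15 with the length trend removed, and in neither was its unadjusted p under 0.05. Cd59a, which blocks the membrane attack complex, was at 32.0, 29.8, 28.0 and 26.0 FPKM in the knockouts and at 29.5, 58.4, 42.1 and 33.9 FPKM in the controls, a log2 fold change of -0.73 (SE 0.302, unadjusted p = 0.0373, adjusted p = 0.498 in edgeR's test). Without TBX20fl/fl replicate 2 the estimate for Cd59a was -0.33, and with the length trend removed it was -0.49. Cd59b was at 0.47 to 1.12 FPKM in the knockouts and 1.02 to 1.95 FPKM in the controls. It shares 20.1% of its 50-base stretches with Cd59a and others and rested on 16 to 49 counts per mouse, with a log2 fold change of -1.36 (SE 0.342, unadjusted p = 0.00296, adjusted p = 0.498 in edgeR's test), and estimates of -0.98 without TBX20fl/fl replicate 2 and -1.11 with the length trend removed.

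The most abundant of the other complement genes were Serping1, which encodes the inhibitor of C1r and C1s, at a mean of 238 FPKM over the 8 mice, and the C1q chains C1qb at 196, C1qc at 154 and C1qa at 136 FPKM. Cfp, which encodes the stabilising factor properdin, stood at 51.8 FPKM and the regulator Cr1l at 51.5 FPKM. The chains C1qa and C1qc had log2 fold changes of -0.33 and -0.41, Serping1 of -0.25, Cfp of -0.24 and Cr1l of -0.40, and none of these had an unadjusted p under 0.05 in edgeR's test. The terminal components were scarce. Hc, the mouse gene for C5, from which the ligand of C5ar1 is cut, had 1 to 11 counts per mouse. The hepatocyte markers Alb, Apoa1 and Ttr together reached 4.91 to 10.6 FPKM in the knockouts and 4.97 to 10.4 FPKM in the controls.

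C3ar1 and C5ar1 are known from neutrophils, mast cells, monocytes and macrophages, whose marker lists were measured in the same libraries. All 8 neutrophil markers had lower estimates in the knockouts, 5 of them at an unadjusted p under 0.05 where 5.91% of all genes were, with a median log2 fold change of -0.94 (-0.80 without TBX20fl/fl replicate 2). Their FPKM values summed to 219.7 to 424 in the knockouts and 444 to 1138 in the controls, without overlap. S100a8, S100a9 and Il1r2 made up most of these sums, at 398, 458 and 216 FPKM of the 1138 in TBX20fl/fl replicate 2, and S100a8 and S100a9 are also made by keratinocytes. The nearest sums were 424 FPKM in TBX20fl/fl;K14-Cre replicate 4 and 444 FPKM in TBX20fl/fl replicate 1. Il1r2 made up 125.6 and 152 FPKM of them, so the gap between the groups rests on that gene. Taken singly, 3 of the 8 markers did not overlap between the groups, S100a9, Il1r2 and Ly6g, and the other 5 overlapped, with an estimate of -0.0022 for Mmp9. Over all 15970 genes, 7.37% did not overlap in either direction. S100a9 was separated by only 131.07 against 132.0 FPKM, and Ly6g was low, at 0.12 to 0.23 against 0.37 to 0.56 FPKM. The mast cell markers summed to 478 to 535 FPKM in the knockouts and 581 to 866 FPKM in the controls, or 581 to 647 FPKM without TBX20fl/fl replicate 2, with 4 of 5 lower, 2 of them at an unadjusted p under 0.05. Their median log2 fold change was -0.38, and -0.18 without that mouse. Of the 5 mast cell markers, 2 did not overlap between the groups, Cma1 and Cpa3, against the same 7.37% of all genes. Mcpt4, Tpsb2 and Kit overlapped, with an estimate of 0.31 for Kit. Monocyte markers summed to 229.6 to 415 FPKM and 253 to 502 FPKM, with 4 of 5 lower and 3 at an unadjusted p under 0.05, and a median of -1.03, or -0.56 without that mouse. The macrophage markers, which include C1qa, summed to 279 to 448 FPKM and 257 to 421 FPKM and had 3 of 6 lower and 0 at an unadjusted p under 0.05. No marker of these lists was under 0.1 FPKM in every mouse. The part of these cells in the values of C3ar1 and C5ar1 was not tested.

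**Figure D5:**
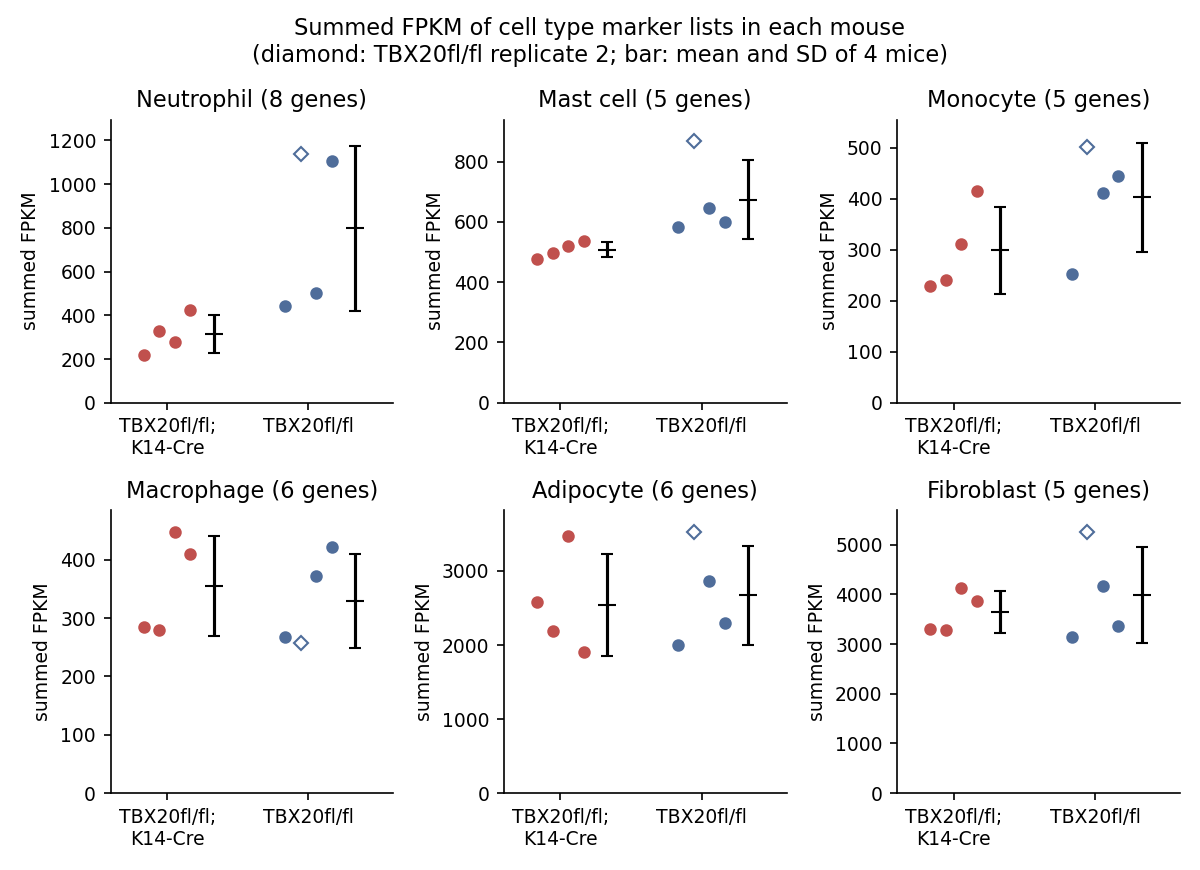
Summed FPKM (y axis) of 6 cell type marker lists in each mouse, red for TBX20fl/fl;K14-Cre and blue for TBX20fl/fl, with the bar at the mean and SD of 4 mice. The neutrophil sums (219.7 to 424 against 444 to 1138 FPKM) and the mast cell sums (478 to 535 against 581 to 866 FPKM) do not overlap between the genotypes, and the other 4 lists overlap. The neutrophil gap rests on Il1r2, and in the mast cell list only Cma1 and Cpa3 do not overlap singly.

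The genes whose pattern over the 8 mice was most like that of a member were found among 12332 genes with a mean CPM of at least 5, by the same root mean square difference of log2 CPM. For C3 they were Eng (0.124), Tgfbr3 (0.125) and Fbln1 (0.129). For Cfd they were Ntf3 (0.052), Gpm6a (0.084) and Nrn1 (0.085), all of which shared the maximum of Cfd in TBX20fl/fl replicate 2. For C5ar1 they were Slc7a7 (0.072), Entpd1 (0.075) and Tgfbi (0.082). All 3 neighbours of C3 had their lowest FPKM in TBX20fl/fl replicate 2, at 4.92, 6.67 and 8.25 FPKM, as did C3 itself.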

How the data were processed

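RNA from 8 mice was read by the authors with single-end 50-base DNBseq reads, filtered with SOAPnuke, aligned with HISAT and quantified on the Dr. Tom platform. The counting program and strand setting are not given in the sources used here. The authors deposited estimated counts (expected counts) without normalization, and 69.0% of those above 0 are not whole. The authors also deposited FPKM values, used here for levels, and TPM values and a size-factor-scaled read signal, neither of which was used. Columns in which the authors deposited their own comparisons (17, with log2 fold, p-value and q-value) and 40 columns of group means were not used.

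Counts were rounded. The 17124 genes whose counts summed to 10 or more were compared between genotypes in edgeR 4.0.16 (R 4.3.3), with TMM scaling, its quasi-likelihood test and Benjamini-Hochberg adjustment at 0.05. Permutation tests used FPKM in 15970 genes with a mean of at least 0.1, or log2 CPM with a prior count of 2 for ratios (Python 3.11.15, numpy 2.4.6, pandas 2.3.3). At these depths 3 counts are 0.151 to 0.187 CPM, a floor for counting error only. Alternatives used DESeq2 1.42.0, limma 3.58.1 on log2(FPKM + 1), a length trend per mouse fitted where the mean count reached 50, a replicate block and leaving out each mouse. Coordinates are RefSeq's on GRCm38.p6, since the deposited table places C4b, C2 and Cfb on an alternate scaffold.

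Replicate numbers come from the labels, which do not say what they mark. Over 13298 genes the deviations of same-numbered mice correlated at 0.405, 0.319, 0.331 and 0.160 (n = 4 pairs), each over the 0.1 set for taking the numbers as pairs. Of the differently numbered pairs, TBX20fl/fl;K14-Cre replicate 4 with TBX20fl/fl replicate 1 (0.426), replicate 3 with 4 (0.226) and replicate 2 with 3 (0.218) were also over it, the first above every same-numbered pair, so the pairing is weakly marked. Tests were unpaired, with the block as an alternative. No libraries were alike enough to be duplicates.

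The members, gene lists and tests were chosen with earlier results of these data known. Named with values are the 9 members, other complement genes with an unadjusted p under 0.05, without overlap in FPKM (there were 0) or among the 6 highest, paralogs of members, and the 3 genes most alike to C3, Cfd and C5ar1. Scripts were tested on simulated counts.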

Additional observations from a re-analysis of the deposited data

Results flagged for a closer look

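Within each genotype the highest and lowest FPKM of each member were compared with the nearest other mouse. In TBX20fl/fl mice C2 was at 10.15 FPKM in replicate 2 and at 16.36 to 16.73 FPKM in the other 3, a gap of 0.944 of the whole range of the group, past Dixon's critical value. Of 18 groups examined 1 was past it, and about 0.9 would be by chance. The FPKM values carry no TMM scaling, and the FPKM sum of this library stood apart. On log2 CPM with TMM scaling this mouse lay at -0.22 from the median of the others for C2. The lowest other mouse lay at -0.25, so C2 was inside their range on that scale.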

How the results depend on the processing

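Of 153 member estimates under the alternatives, 148 kept their direction, 5 turned and none passed the threshold. Direction here is the sign alone. Among those that kept it, Cfd was -0.00057 with the length trend removed and the replicate block, and C5ar1 was -0.0011 by limma on log2(FPKM + 1). With the length trend removed C4b was -0.0037 and Cfd 0.017. Leaving out 1 mouse at a time gave 0.050 to 0.30 for C1ra, -0.072 to 0.15 for C1s1, -0.058 to 0.48 for C4b, -0.071 to 0.14 for C2, 0.19 to 0.65 for C3, -0.46 to -0.19 for Cfb, -0.72 to -0.16 for Cfd, -0.62 to -0.34 for C3ar1 and -0.27 to -0.042 for C5ar1. It also gave 0.34 to 1.30 for the log2 ratio of C3 to Cfd, -0.31 to 0.42 for that of Cfb to Cfd, and 1 to 7 lower and 0 to 1 higher other complement genes at an unadjusted p under 0.05, where the lower calls over all genes ran from 536 to 1859. limma on FPKM found 1 lower gene with either pseudocount and with no filter. On the scale of limma with log2(FPKM + 1) the median of all genes was 0.12, the median of the 9 members was 0.20, and unadjusted calls split into 541 lower and 505 higher against 1012 and 419 in edgeR. Single members moved too, with Cfb at -0.12, Cfd at -0.27 and C4b at 0.50 on that scale, against -0.30, -0.54 and 0.21 in edgeR. DESeq2 called 10 genes past the threshold where edgeR called 0, with 1431 at an unadjusted p under 0.05 in edgeR, and none of the 10 was a member. The causes were not tested. With the replicate number as a block, C3 was 0.47 and C3ar1 -0.50 (unadjusted p = 0.0456 and 0.0496, adjusted p = 0.405 for each in edgeR's test), where 1120 of 17124 genes were lower and 603 higher at an unadjusted p under 0.05, and the block changed no result at the adjusted threshold.

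The 8 libraries give wide intervals for C3, C4b and Cfd, and genotype and the cell makeup of each piece of skin cannot be told apart. Only BNP-injected skin at 1 time was analysed, and RNA levels do not give protein or complement activity.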
